A study of Mus musculus with 180 samples.

Results

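Nuclear genes of the mitochondrial respiratory chain were followed in mouse embryonic stem cells (ESCs, held in the naive state of the pre-implantation embryo) and in epiblast-like cells (EpiLCs, ESCs moved into the formative state that precedes lineage choice). Genes were taken by symbol: Nduf, Uqcr, Sdh followed by a to d, Cox followed by 4 to 8, or Atp5, without symbols that hold -ps. This gave 97 gene identifiers, with 96 different symbols because Atp5o has 2, of the 31053 genes in the annotation that came with the single-cell data of the study. Of the 97, 91 had a row in the bulk RNA data for ESCs, 91 for EpiLCs, 90 for both states and 91 in the ESC table that includes the hybrid. The heart, muscle, lung and testis isoforms Cox4i2, Cox6a2, Cox8b and Cox8c and the second Atp5o identifier were not analysed here, Cox7b2 had values in EpiLCs and Ndufa4l2 in ESCs.

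The study set cells of the inbred strain DBA/2J (D2) against cells of C57BL/6J (B6) to ask how genetic background shows in pluripotent cells. D2 was represented by lines D29, D55 and DAC203, with 1 RNA library per line in each state. The F1 hybrid of the 2 strains was represented by ESC lines F116, F117 and F124. There were 33 BXD lines, from inbred strains that carry a mosaic of B6 and D2 chromosomes, each with 1 library per state. B6 was represented by lines B41, B44 and B51, again with 1 library per line in each state. The labels give no agent, transgene or deletion for any group, and neither the age nor the sex of the embryos is stated. The 3 lines of a strain serve as its replicates, so that a p-value sets a difference against the spread among lines of 1 strain.

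The respiratory chain moves electrons from NADH and succinate to oxygen across the inner mitochondrial membrane and pumps protons, and ATP synthase uses the proton gradient to make ATP. Complex I (Nduf genes) takes electrons from NADH, complex II (Sdh) from succinate, complex III (Uqcr) passes them to cytochrome c, and complex IV (Cox) to oxygen. Except for complex II, each complex combines nuclear subunits with a few that the mitochondrial genome encodes. Naive ESCs use both respiration and glycolysis, and primed epiblast cells are known for relying more on glycolysis.

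The promoters of these genes are known for sites of NRF1 and of ETS family factors, which drive many mitochondrial genes, so the sequences before the start sites were examined first. RefSeq promoters of GRCm38.p6 (the mm10 genome, 250 bases before to 50 after a start) were found for 78 of the 96 symbols. The NRF1 word, GCGC, then any base, then TGCGC, searched on both strands, stood in 21 of the 78 (26.92%), against 5.19% of 27025 genes with a promoter. The ETS word CCGGAAG, on both strands, also stood in 21 of 78 (26.92%), against 9.93% of all genes. Only 5 of these genes held both words, and in 0 promoter sequences did the 2 words overlap. Member promoters had a median GC content of 58.3% and all promoters 52.7%. The YY1 word AAGATGGC stood in 12.82% of member promoters and 3.19% of all. The SP word GGGCGG was in 47.44% and 38.2%, CCAAT in 43.59% and 41.06%, and the ERR word AAGGTCA in 10.26% and 5.38%, members first. In promoters of 54.3 to 62.2% GC (41 members) the NRF1 word stood in 29.3% of members and 6.94% of all genes, the ETS word in 26.8% and 14.36%, and the YY1 word in 17.1% and 3.86%. In the same window the SP word stood in 48.8% and 49.72%, CCAAT in 34.1% and 39.17%, and the ERR word in 12.2% and 4.03%, so that SP and CCAAT were no more frequent in members there. A match is a run of letters and not a measured binding site. Examples that lie wholly before the annotated gene are shown for a catalytic and a membrane subunit of complex II, for subunits of complexes I, III and IV and for ATP synthase, with the word in capitals:
Sdha, NRF1, chr13:74350304-74350363, minus strand: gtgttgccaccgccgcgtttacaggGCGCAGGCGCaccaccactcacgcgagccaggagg
Sdhd, NRF1, chr9:50603894-50603953, minus strand: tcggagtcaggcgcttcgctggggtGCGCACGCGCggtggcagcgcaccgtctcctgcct
Ndufa11, NRF1, chr17:56717677-56717736, plus strand: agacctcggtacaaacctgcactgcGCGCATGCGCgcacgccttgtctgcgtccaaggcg
Ndufs5, NRF1, chr4:123718250-123718309, minus strand: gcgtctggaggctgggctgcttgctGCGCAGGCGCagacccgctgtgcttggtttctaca
Cox6a1, NRF1, chr5:115349086-115349145, minus strand: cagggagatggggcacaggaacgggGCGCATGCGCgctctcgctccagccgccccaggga
Uqcr11, ETS, chr10:80406856-80406912, minus strand: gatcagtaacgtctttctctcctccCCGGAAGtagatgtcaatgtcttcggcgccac
Atp5e, ETS, chr2:174464172-174464228, minus strand: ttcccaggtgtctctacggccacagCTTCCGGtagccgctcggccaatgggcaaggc

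Near-identical copies elsewhere in the genome bear on several values below. Of the member genes, 22 had at least 1 other place in the genome that matched the coding sequence at 95% identity or more over at least 50% of its length. The coding sequence of Atp5g2, one of 3 genes for the c ring that turns inside ATP synthase, was identical over all 438 bases to Gm10175, a transcribed processed pseudogene at chr7:23946795-23947232, minus strand. The coding sequence of Ndufab1, the acyl carrier protein of complex I, differed from Gm4459 at 1 of 468 bases, G137A, counted from the first coding base, with the gene's base first. The matching stretches are shown so that the reader can see how little separates them, with the single difference in capitals:
Atp5g2, chr15:102665131-102665190, minus strand: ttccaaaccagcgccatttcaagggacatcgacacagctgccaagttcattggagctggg
Gm10175, chr7:23946984-23947043, minus strand: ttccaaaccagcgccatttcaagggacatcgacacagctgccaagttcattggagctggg
Ndufab1, chr7:122101657-122101716, minus strand: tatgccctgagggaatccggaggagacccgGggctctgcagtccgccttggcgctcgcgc
Gm4459, chr7:139659990-139660049, minus strand: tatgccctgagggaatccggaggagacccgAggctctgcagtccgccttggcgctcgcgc

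RNA values are normalized signals per gene, scaled by the authors to library sums between 902250 and 1115271 in the ESC table and between 875065 and 1230020 in the EpiLC table. They are not divided by transcript length, their read depth is unknown, and the states were normalized separately, so levels were tested only within a state. Libraries differed in how they weighted short and long transcripts, and the member genes are short: 47 of the 90 in both tables (52.2%) had a longest coding transcript under 1000 bases, against 4.85% of 11082 genes with a known length, and the median lengths were 963 and 3200.5 bases. All genes with transcripts under 1000 bases deviated from their table's median profile by a median of -0.257 to -0.102 (log2) in D2 ESC libraries and -0.0412 to 0.00155 in B6 ESC libraries. In EpiLCs the same medians were -0.337 to -0.253 in D2 libraries and -0.601 to -0.324 in B6 libraries. D55 and B44 stood apart: D55 was the lowest of the D2 ESC libraries, and B44 the highest of the B6 EpiLC libraries. Results are therefore given both as deposited and after each library was centred on its own trend with transcript length, a correction chosen after the data were seen. The trend was fitted over all genes with a known length, and 47 of the 537 such genes under 1000 bases were members. Centring thus also takes out a change that members share with other short transcripts, whatever its source. A call lost after centring does not show what that source was.

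Marker genes followed the labelled states. The 10 naive markers summed to 2927 to 3036 in D2 ESCs and 3017 to 3211 in B6 ESCs, and 9 of them summed to 158.8 to 182.9 in D2 EpiLCs and 89.64 to 94.19 in B6 EpiLCs. The EpiLC markers summed to 287.9 to 359.5 in D2 ESCs and 158.4 to 212.8 in B6 ESCs (6 of 7 genes), and to 2995 to 3008 in D2 EpiLCs and 2755 to 3396 in B6 EpiLCs (7 of 7). Fibroblast markers summed to 1307 to 1868 in D2 ESCs, 1314 to 1591 in B6 ESCs (11 of 11), 258.3 to 359.6 in D2 EpiLCs and 141.2 to 157 in B6 EpiLCs (9 of 11). Primitive endoderm markers summed to 52.28 to 66.15 in D2 ESCs, 132.6 to 163.1 in B6 ESCs, 167.9 to 237.8 in D2 EpiLCs and 163.1 to 203.4 in B6 EpiLCs, over Gata4, Pdgfra, Dab2 and Lamb1. No marker with values was at 0 in all libraries of a group, and Gata6, Sox17 and Foxa2 were not analysed here. In such bulk samples fewer cells of a type and less RNA per cell cannot be told apart, and the part of these differences in the results below was not tested.

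In ESCs the member genes were mostly lower in D2 than in B6. By limma with Benjamini-Hochberg (BH) adjustment over all 12694 genes tested, and calls at an adjusted p under 0.05, 32 of 91 members were called, 4 higher and 28 lower in D2 (background 37.6% of all genes called, 17.3% higher and 20.3% lower). The median log2 difference, D2 minus B6, was -0.151 over the members and -0.0378 over all genes. The members were thus called about as often as other genes, and more often in the lower direction. After centring on transcript length 26 members were called, 13 higher and 13 lower (background 37.6%, 19.4% higher and 18.2% lower), with a median of -0.0592, and 17 were called in the same direction both ways. The count of 32 also rested on single lines: it was 13 without B41, 19 without B44, 17 without B51, 19 without D29, 27 without D55 and 36 without DAC203. The values of D2 and B6 lines did not overlap for 41 members, 7 with D2 above and 34 with D2 below B6, against a background of 51.4% of all genes without overlap.

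In EpiLCs the direction was the opposite: 39 of 91 members were called, 34 higher and 5 lower in D2 (background 57.5%, 28.5% higher and 29% lower), and the median difference was 0.162 over members and 0.00124 over all 12692 genes. After centring on transcript length 44 were called, 25 higher and 19 lower (background 60.7%, 31% higher and 29.7% lower), with a median of 0.0427, and 29 were called in the same direction both ways. Without 1 line the count lay between 32 and 53, the highest being without B44. The lines of D2 and B6 did not overlap for 40 members, 34 with D2 above and 6 with D2 below B6 (background 63.7%).

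The change of the strain difference between states was tested directly, by subtracting the ESC difference from the EpiLC difference across the 12 parental libraries. It was called for 37 of 90 members, 36 positive and 1 negative (background 36.0%, 20% positive and 16% negative), with a median of 0.321 over members and 0.0519 over all 11745 genes. After centring on transcript length 26 were called, 17 positive and 9 negative (background 37.0%, 19.4% positive and 17.6% negative), the median was 0.0528, and 18 were called in the same direction both ways. The count was 20 without B41, 22 without B51, 21 without D55 and 48 without B44. With the cell line as a block, since each line gave both libraries, it was 34. Among all members 5 were called lower in D2 ESCs and higher in D2 EpiLCs (Cox5b, Cox7a1, Ndufaf7, Ndufb10 and Ndufb9), and all 5 were called for the change between states. After centring Ndufaf7 kept both calls (-0.594 in ESCs and 0.428 in EpiLCs), and the other 4 had at most 1. Ndufab1 and Ndufaf2 were called lower in D2 in both states, and Atp5g2, Ndufaf3 and Sdhc higher in both. Genes called in both states, in the same or in opposite directions, were not counted over all genes. Whether these numbers are particular to the members is therefore not known.

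**Figure D1:**
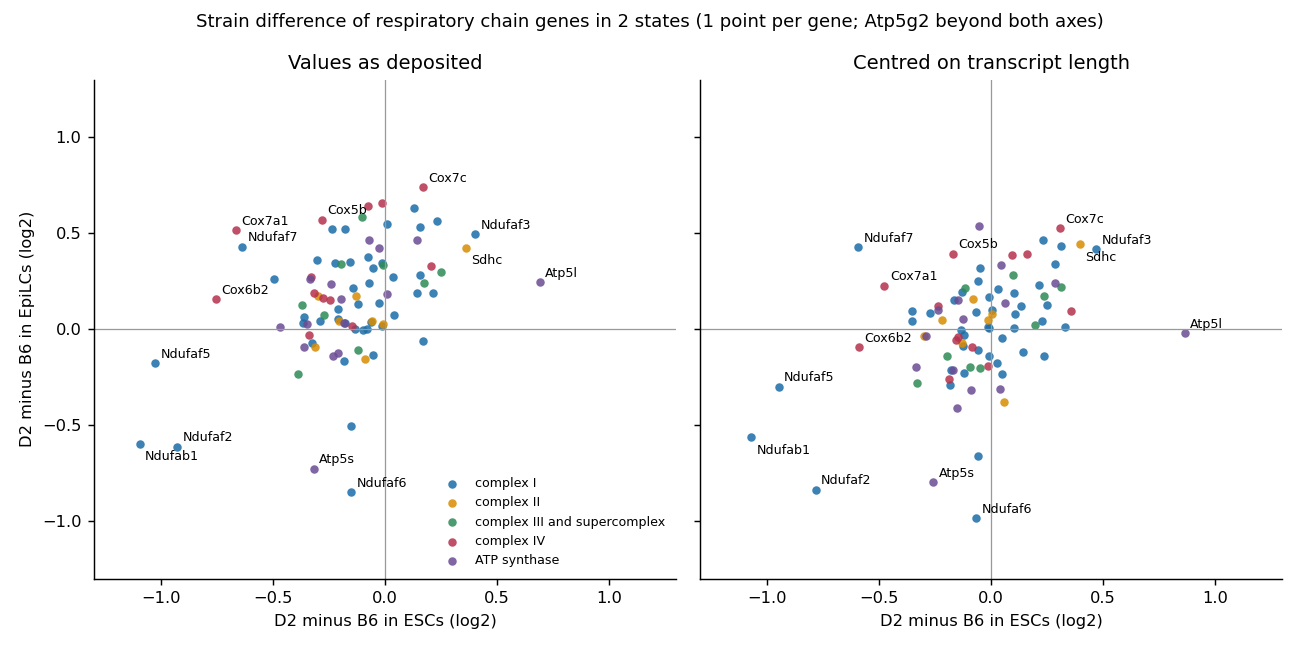
Log2 difference of D2 minus B6 in ESCs (horizontal) and EpiLCs (vertical), 1 point per gene and coloured by complex, as deposited (left) and after centring on transcript length (right). Most points lie left of 0 and above 0 as deposited (medians -0.151 and 0.162), and nearer the origin after centring (medians -0.0592 and 0.0427); Atp5g2 lies beyond both axes.

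The counts by complex from here on stand beside the shares of all genes called. These were 37.6% in ESCs, 57.5% in EpiLCs and 36.0% for the change between states. After length centring they were 37.6%, 60.7% and 37.0%. Complex I has 7 nuclear core subunits that carry the flavin and iron-sulfur clusters. None of them was called in ESCs, where their differences ran from -0.222 to 0.155, and after centring 2 were called there, both higher. In EpiLCs 3 were called, all higher in D2 (1 higher and 1 lower after centring): Ndufs3 by 0.19, Ndufs7 by 0.28 and Ndufs8 by 0.34. Ndufs1, the large subunit of the NADH-oxidising arm, had 134, 128 and 129 in D2 ESC lines D29, D55 and DAC203 and 132, 140 and 136 in B6 ESC lines B41, B44 and B51. In EpiLCs it had 175, 157 and 149 in D2 and 162, 195 and 171 in B6. The strains overlapped in both states, and Ndufs1 was not called in either. Ndufs7, which carries the last iron-sulfur cluster before ubiquinone, had 48.4, 43.3 and 40 in D2 EpiLCs, all above the 36.9, 35.6 and 35.1 of B6 EpiLCs, but its call was lost after length centring (0.126, adjusted p = 0.202 by limma) and without D29 (adjusted p = 0.0662 by limma).

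Of the 29 supernumerary subunits of complex I, which surround the core, 7 were called in ESCs (1 higher and 6 lower in D2) and 14 in EpiLCs (12 higher and 2 lower). For the change between states 11 were called, all positive. The background was 37.6% of all genes in ESCs, 57.5% in EpiLCs and 36.0% for the change. After length centring these counts were 3 higher and 3 lower in ESCs, 7 higher and 4 lower in EpiLCs, and 5 positive and 3 negative for the change. Ndufa11, a membrane-arm subunit, had 61.8, 52 and 59.4 in D2 ESCs and 50.7, 51.4 and 55.7 in B6 ESCs, which overlap. In EpiLCs it had 68.9, 65.4 and 63.8 in D2 lines and 38.4, 51 and 38.6 in B6 lines, with every D2 line above every B6 line. The EpiLC difference was 0.63 ± 0.106 (SE; adjusted p = 0.000344 by limma) as deposited and 0.463 after centring. Ndufb9 had 56.3, 49.9 and 60 in D2 ESCs, below the 83.2, 72.8 and 79.3 of B6 ESCs, for a difference of -0.50 ± 0.0931 (SE; adjusted p = 0.00311 by limma). In EpiLCs its D2 lines had 82.2, 77.2 and 72.5 and its B6 lines 59.3, 76.1 and 59, and that call (0.26) was lost without any 1 line except B44, with adjusted p of 0.0535 to 0.165, and after length centring (0.043, adjusted p = 0.571 by limma). The change between states of Ndufb9, 0.76, was called as deposited and after centring (0.398). Ndufa7 had 140 in each of the D2 EpiLC lines and 87.6, 118 and 88.4 in the B6 EpiLC lines, with B44 the highest of B6.

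The 3 member genes on the X chromosome were also given by line. Ndufa1 had 28.2, 30.5 and 29.5 in D2 EpiLCs and 17.2, 23.8 and 18.9 in B6 EpiLCs, and in ESCs 30.3, 24.5 and 31.8 in D2 and 30.7, 28.5 and 26.7 in B6. Ndufb11 had 51.4, 53.8 and 53 in D2 EpiLCs and 37.6, 44.3 and 39.3 in B6 EpiLCs, against overlapping values in ESCs of 49.5, 44.1 and 59.4 in D2 and 55.3, 50.2 and 54.7 in B6. Both were called higher in D2 EpiLCs (0.55 and 0.38) and in neither ESC comparison. Cox7b, a small subunit of complex IV, had 142, 120 and 122 in D2 ESCs and 166, 152 and 164 in B6 ESCs, without overlap (-0.33), a call that was lost without B41 or B51 (adjusted p = 0.0669 and 0.0673 by limma). The sex of the lines was not used here.

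The 8 assembly factors of complex I, which build the complex but are not part of it, moved in both directions. In ESCs 1 was called higher and 3 lower in D2, and in EpiLCs 3 higher and 2 lower, and after centring 1 higher and 3 lower in ESCs and 3 higher and 3 lower in EpiLCs. Ndufaf5, a hydroxylase of the core subunit Ndufs7, had 7.15, 6.85 and 8.94 in D2 ESCs and 17.3, 17 and 15.4 in B6 ESCs. The D2 values lay near one another and well below B6, for a difference of -1.03 ± 0.127 (SE; adjusted p = 0.000324 by limma), while in EpiLCs the strains overlapped at 9.17, 9.15 and 9.45 in D2 and 9.33, 14 and 9.08 in B6. Ndufaf2, a chaperone that sits on a late assembly intermediate, had 8.94, 5.92 and 7.55 in D2 ESCs and 15.7, 14.7 and 14.5 in B6 ESCs. In EpiLCs it had 13.9, 15.5 and 14.4 in D2 and 20.8, 26.8 and 21.3 in B6. D2 was below B6 without overlap in both states, by -0.93 in ESCs and -0.61 in EpiLCs, and its change between states (0.32) was not called.

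Ndufaf7, an arginine methyltransferase that modifies a core subunit, moved in opposite directions in the 2 states. It had 17.1, 14.3 and 21.6 in D2 ESCs, below the 28, 27.6 and 27.5 of B6 ESCs, and 33.4, 31.3 and 34.5 in D2 EpiLCs, above the 23.4, 27.6 and 22.1 of B6 EpiLCs. The change between states was 1.07 ± 0.172 (SE; adjusted p = 0.00022 by limma), and 1.01 after length centring. Ndufaf6 went the other way as the only negative call of the 37: it had 12.6, 9.36 and 9.17 in D2 EpiLCs and 18.3, 23.2 and 16.9 in B6 EpiLCs, and 13.4, 11.5 and 15.8 in D2 ESCs and 16.7, 13.8 and 14.8 in B6 ESCs. Its change of -0.70 was not called without B44 (adjusted p = 0.0896) or without DAC203 (0.0605, both by limma). Ndufaf3 had 15.1, 13.2 and 14.5 in D2 ESCs and 10.8, 9.76 and 11 in B6 ESCs, and 16.5, 15.3 and 18.1 in D2 EpiLCs and 11, 12.4 and 11.1 in B6 EpiLCs, so that D2 was above B6 in both states. Its ESC call was lost without B41, B44 or D29 (adjusted p of 0.0519 to 0.0764). Ndufaf8 had 13.7, 12.8 and 13.9 in D2 EpiLCs and 8.38, 9.07 and 9.59 in B6 EpiLCs (0.54), and overlapped between strains in ESCs.

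**Figure D2:**
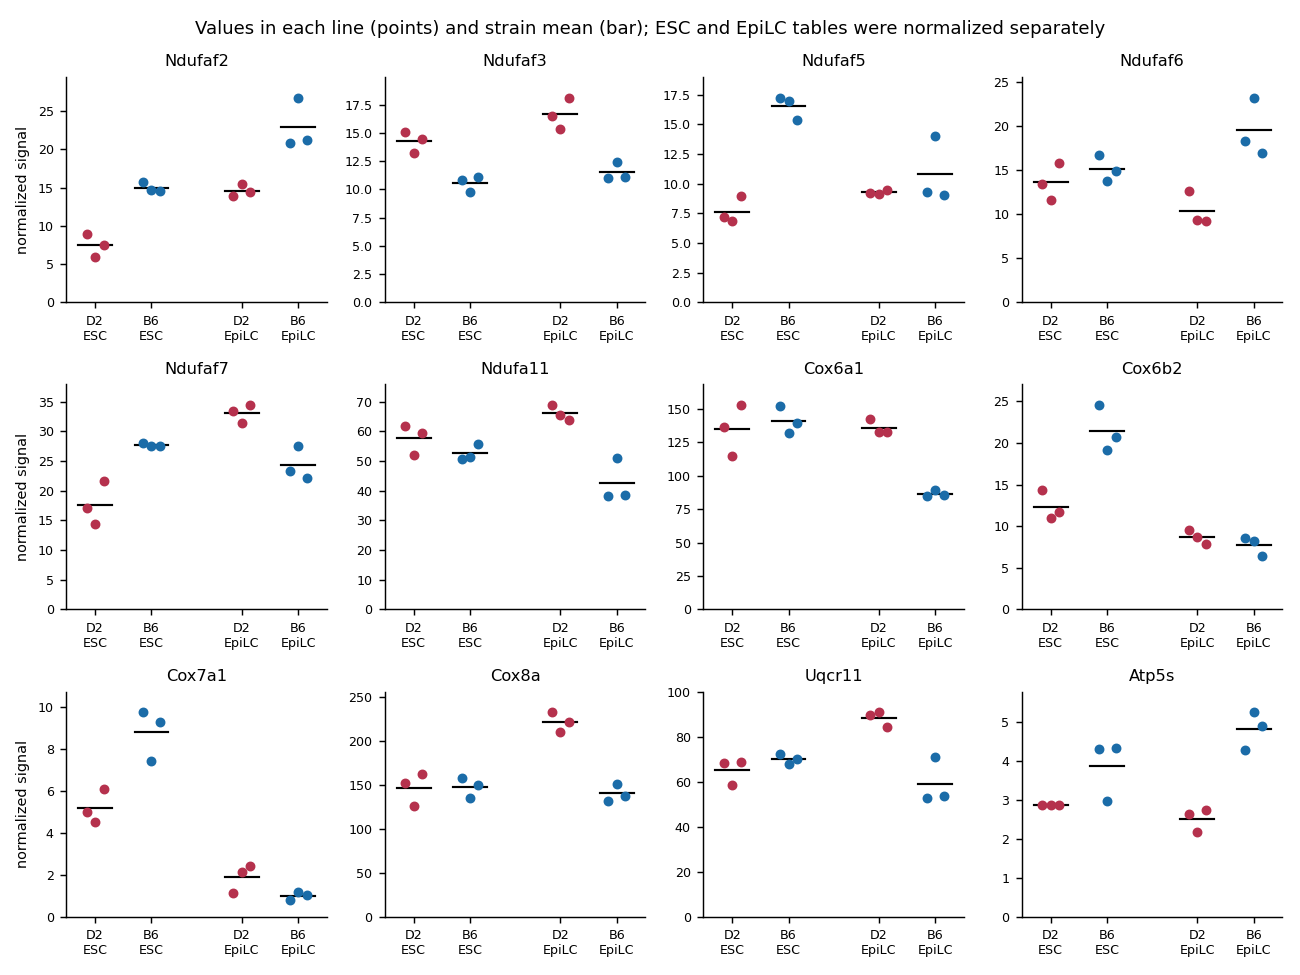
Normalized signal of 12 member genes in each line (points) with the strain mean (bar), D2 in red and B6 in blue, ESCs at left and EpiLCs at right of each panel; the vertical axis starts at 0 and the states come from separately normalized tables. Ndufaf7 and Cox7a1 are lower in D2 ESCs and higher on average in D2 EpiLCs, Ndufaf2 is lower in D2 in both states, and Ndufaf3 is higher in D2 in both.

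Complex II, which also serves the citric acid cycle, was mixed. Sdha, the flavoprotein that oxidises succinate, had 252, 237 and 277 in D2 ESCs and 281, 259 and 257 in B6 ESCs, and 234, 244 and 252 in D2 EpiLCs and 239, 219 and 251 in B6 EpiLCs. Its strains overlapped in both states. Sdhc, a membrane anchor, had 145, 135 and 166 in D2 ESCs, above the 127, 107 and 112 of B6 ESCs, and 97.4, 90.7 and 86.9 in D2 EpiLCs, above the 68.6, 71.2 and 64.3 of B6 EpiLCs. The other 2 subunits called in ESCs, Sdhb (-0.30) and Sdhd (-0.20), were lower in D2, and the calls of both were absent after length centring, while that of Sdhc stayed. None of the 4 assembly factors of complex II was called in either state, where their differences ran from -0.313 to 0.172. After length centring 1 of them, Sdhaf4, was called lower in D2 EpiLCs (-0.378, adjusted p = 0.00773 by limma) and for a negative change between states (-0.433, adjusted p = 0.0497 by limma).

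Of the 8 complex III subunits 3 were called lower in D2 ESCs and 4 higher in D2 EpiLCs (background 20.3% lower and 28.5% higher). After length centring the calls were 2 higher and 1 lower in ESCs and 3 higher and 2 lower in EpiLCs. Uqcrc1, a core subunit of the matrix side, had 256, 252 and 251 in D2 EpiLCs and 216, 214 and 211 in B6 EpiLCs, a small difference of 0.24 ± 0.067 (SE; adjusted p = 0.00866 by limma) with lines very close to each other. In ESCs it had 309, 255 and 316 in D2 and 258, 259 and 258 in B6, so that D55 lay at the B6 level, and it was not called. Uqcr11, the smallest subunit, had 89.7, 90.9 and 84.3 in D2 EpiLCs and 52.5, 70.9 and 53.5 in B6 EpiLCs. Uqcrh, the hinge subunit that binds cytochrome c1, had 99.6, 86.1 and 85.9 in D2 ESCs and 119, 120 and 113 in B6 ESCs, a call that was lost after length centring (-0.200, adjusted p = 0.0787 by limma). Its EpiLC values of 139, 131 and 119 in D2 and 104, 150 and 106 in B6 overlapped, with B44 above every D2 line.

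In complex IV all calls pointed one way in each state as deposited. Of 11 main-isoform genes 6 were called in ESCs, all lower in D2, and 5 in EpiLCs, all higher in D2. For the change between states 8 of 11 were called, all positive, with a median of 0.505. After length centring the calls were 2 higher and 1 lower in ESCs, 4 higher and 2 lower in EpiLCs, and 2 positive and 0 negative by limma for the change, with a median of 0.106. Cox4i1, the regulatory subunit that binds ATP, had 282, 268 and 295 in D2 ESCs, below the 364, 314 and 347 of B6 ESCs, and 286, 256 and 266 in D2 EpiLCs and 212, 294 and 222 in B6 EpiLCs, where B44 lay above every D2 line. Its ESC call (-0.28) was lost after length centring (adjusted p = 0.145 by limma) and without B41, B51, D29 or D55 (adjusted p of 0.0583 to 0.108). Its change between states (0.44) was not called with the cell line as a block (adjusted p = 0.0518 by limma) or without B41, B51, D29 or D55 (adjusted p of 0.0761 to 0.188). Cox5b, which carries a zinc site, had 97.5, 84 and 107 in D2 ESCs and 120.1, 112.7 and 116.8 in B6 ESCs. In EpiLCs it had 200, 193 and 187 in D2, all above the 119, 155 and 118 of B6. Its ESC call was lost when any 1 line but DAC203 was left out (adjusted p of 0.0883 to 0.137) and after length centring (-0.170, adjusted p = 0.119 by limma), and its EpiLC difference of 0.57 and change of 0.85 were called in each of these fits.

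Cox6a1, Cox7c and Cox8a, small subunits around the catalytic core, had overlapping strains in ESCs and separate ones in EpiLCs. Cox8a had 233, 210 and 222 in D2 EpiLCs and 132, 151 and 138 in B6 EpiLCs, for a difference of 0.66 ± 0.0786 (SE; adjusted p = 2.54e-05 by limma), and 0.392 after length centring. Cox6a1 had 142, 132 and 133 in D2 EpiLCs and 84.8, 89.3 and 85.2 in B6 EpiLCs. Cox7c had 116.4, 125.5 and 129.1 in D2 EpiLCs and 64.3, 90.9 and 68 in B6 EpiLCs, but the coding sequence of Cox7c also stands unchanged in the pseudogene Gm12338, and reads of the 2 cannot be told apart over that sequence. Gm12338 had 227 to 235 in D2 EpiLCs and 145 to 197 in B6 EpiLCs, the same direction as Cox7c. A second pseudogene, Gm10012, which matches 98.94% of the coding bases, ran the other way, with 0.518 to 0.858 in D2 EpiLCs and 31.3 to 48.7 in B6 EpiLCs, and 0.401 to 1.26 in D2 ESCs and 16.6 to 20.9 in B6 ESCs. Summed with both pseudogene rows, Cox7c differed by 0.359 (adjusted p = 0.0121 by limma) in EpiLCs. In ESCs the sum differed by -0.232, against 0.168 for the Cox7c row alone, and neither was called.

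Isoforms that are best known from other tissues were present at low values. Cox6b2, the testis form of a subunit facing the intermembrane space, had 14.3, 11 and 11.7 in D2 ESCs and 24.6, 19.2 and 20.7 in B6 ESCs, for a difference of -0.75 ± 0.133 (SE; adjusted p = 0.00226 by limma). In EpiLCs it had 9.58, 8.68 and 7.87 in D2 and 8.62, 8.19 and 6.41 in B6. Cox7a1, the heart and muscle form of subunit 7a, had 4.99, 4.53 and 6.08 in D2 ESCs, below the 9.77, 7.45 and 9.28 of B6 ESCs. In EpiLCs it had 1.15, 2.14 and 2.44 in D2 and 0.788, 1.19 and 1.02 in B6, where D29 overlapped B6, and the EpiLC call was lost without B41, B51, D55 or DAC203 (adjusted p of 0.0562 to 0.122 by limma) and after length centring (0.227, adjusted p = 0.32). The changes between states, 0.91 for Cox6b2 and 1.18 for Cox7a1, were called without each line and after centring (0.50 and 0.715). Ndufa4l2, the hypoxia-linked relative of the complex IV subunit Ndufa4, had 9.65, 10.1 and 22.8 in D2 ESCs and 21.7, 13.1 and 19 in B6 ESCs, a spread within strains that covers the difference. Cox7b2 stayed below 1 in all parental EpiLC lines.

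Among ATP synthase genes, Atp5b, the catalytic beta subunit, had 1991, 1804 and 2225 in D2 ESCs and 2083, 1924 and 1964 in B6 ESCs, and 1901, 1720 and 1742 in D2 EpiLCs and 1512, 1659 and 1550 in B6 EpiLCs. It was not called in either state (adjusted p = 0.0627 in EpiLCs by limma). Atp5e, the epsilon subunit of the central stalk, had 56.7, 51.6 and 52.6 in D2 ESCs and 72, 62.4 and 73.3 in B6 ESCs. That call (-0.36) was lost after length centring (-0.154, adjusted p = 0.188) and without B41 or B51. Atp5s, also called coupling factor B, had 2.64, 2.17 and 2.73 in D2 EpiLCs and 4.27, 5.25 and 4.9 in B6 EpiLCs, so that it was lower in D2 while most members were higher. Of 7 stalk and membrane subunits 3 were called in ESCs, all lower, and 1 in EpiLCs, higher. After length centring the calls were 1 higher and 1 lower in ESCs and 1 higher and 3 lower in EpiLCs, where the median difference went below 0 (-0.022, against 0.236 as deposited).

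The 3 c ring genes encode the same mature protein with different leader peptides. Atp5g1 had 159, 136 and 146 in D2 EpiLCs, above the 107, 103 and 107 of B6 EpiLCs (0.47), and overlapped in ESCs at 106, 102 and 122 in D2 and 115, 120 and 111 in B6. Atp5g3 had 207, 191 and 207 in D2 ESCs, below the 278, 283 and 278 of B6 ESCs (-0.47), and overlapped in EpiLCs at 322, 331 and 308 in D2 and 291, 367 and 299 in B6. Both were called for the change between states, Atp5g1 also after length centring (0.591) and Atp5g3 not (0.134, adjusted p = 0.181 by limma).

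Atp5g2 had the largest strain difference of any member in each state. Its row held 156, 136 and 167 in D2 ESC lines and 19.9, 17.3 and 17.3 in B6 ESC lines, for a difference of 3.0 ± 0.0992 (SE; adjusted p = 7.7e-08 by limma). In EpiLCs it held 241, 230 and 222 in D2 and 11.1, 13.5 and 12.5 in B6, for 4.12 ± 0.0857 (SE; adjusted p = 6.66e-12 by limma). The row of the identical copy Gm10175 ran the other way, with 19.9, 30.7 and 34.6 in D2 ESCs and 187.9, 171.6 and 169.4 in B6 ESCs, and 3.51, 4.35 and 0.998 in D2 EpiLCs and 175.9, 189.2 and 167.6 in B6 EpiLCs. The 2 rows together came to 181 ± 17.9 in D2 ESCs and 194 ± 11.6 in B6 ESCs (SD, n = 3 each). The summed difference was -0.103 (adjusted p = 0.40 by limma) in ESCs, of the opposite sign, and 0.299 (adjusted p = 0.00514 by limma) in EpiLCs, where the sum holds 2 copy rows. No source states how reads of identical stretches were shared between the rows, so the level of each row alone is uncertain. Summing was chosen after the data were seen.

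**Figure D3:**
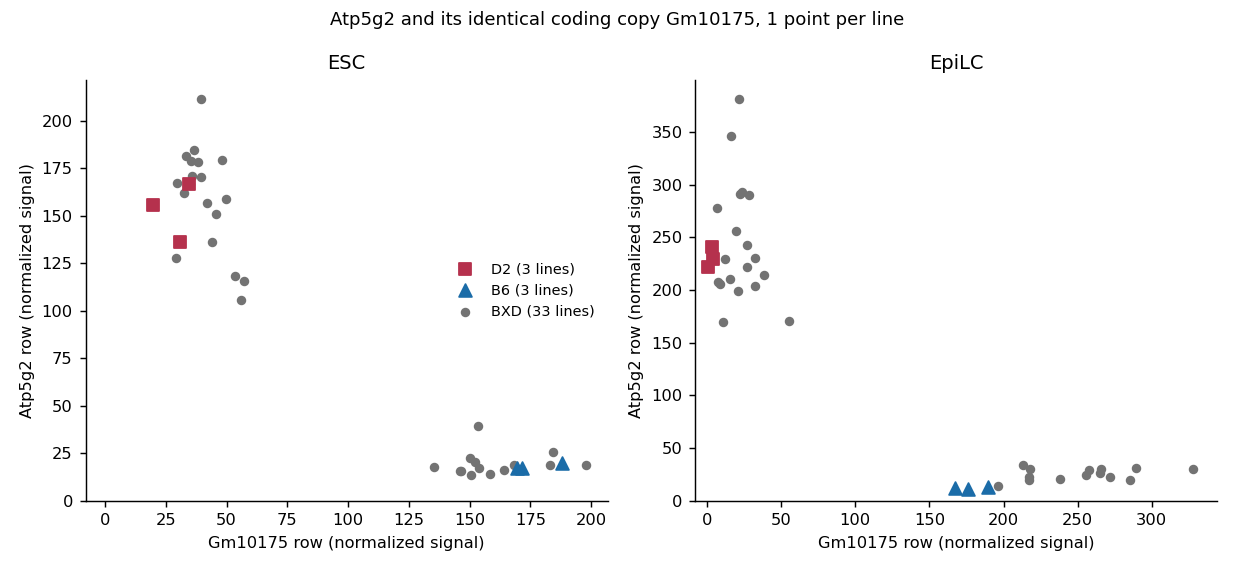
Normalized signal of the Atp5g2 row (vertical) and of the row of its identical copy Gm10175 (horizontal), 1 point per line, D2 squares, B6 triangles and BXD circles, ESCs at left and EpiLCs at right. All lines lie in 1 of 2 groups, with Atp5g2 high and Gm10175 low as in D2, or the reverse as in B6.

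Ndufab1 also ran opposite to its copy between the strains, on a smaller scale. It had 30.8, 29.7 and 27.9 in D2 ESCs and 64.2, 64 and 64 in B6 ESCs (-1.10), and 56.3, 57 and 55.8 in D2 EpiLCs and 81.1, 97.8 and 79.3 in B6 EpiLCs (-0.60). Its copy Gm4459 had 29.9 to 32.9 in D2 ESCs and 7.71 to 10.7 in B6 ESCs, and 56.5 to 57.8 in D2 EpiLCs and 6.74 to 12.8 in B6 EpiLCs. Their sum differed by -0.26 (adjusted p = 0.0188 by limma) in ESCs and by 0.245 (adjusted p = 0.0257 by limma) in EpiLCs, so that the sign in EpiLCs turned. Atp5l, the g subunit, had only 1.61 to 3.66 in D2 ESCs and 0.428 to 2.33 in B6 ESCs, while the pseudogene Gm10221, identical over its 309 coding bases, had 112 to 136 in D2 ESCs and 122 to 132 in B6 ESCs. Cox7a2l, which joins complexes III and IV into supercomplexes, was called higher in D2 EpiLCs (0.34). Its copy Gm6969 had 33 to 39.8 in D2 EpiLCs and is listed at 0 in all 3 B6 EpiLC lines. The sum of Cox7a2l and Gm6969 differed by 0.637 in EpiLCs (adjusted p = 6.51e-05 by limma).

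In F1 hybrid ESCs the mean lay between the means of the parents for 64 of 91 members, above both for 17 and below both for 10. These positions were not counted over all genes, so whether the shares are particular to the members is not known. Against the mean of the 2 parents on the log2 scale 2 of 91 members were called (1 higher and 1 lower, background 3.29% of 12700 genes, 1.97% higher and 1.32% lower), and the median difference was 0.0065 over members and 0.0175 over all genes. Atp5g2 had 72.1 ± 6.14 in F1, 153 ± 15.4 in D2 and 18.2 ± 1.5 in B6 (SD, n = 3 each), 0.43 above the log2 mid-parent value (adjusted p = 0.0212 by limma). For parents so far apart the mean of the unlogged values is higher than this mid-parent value, and the F1 value lay below that mean. The direction for Atp5g2 thus depends on the scale, and the unlogged scale was not tested. Ndufab1 had 35.4 ± 1.81 in F1, 29.5 ± 1.5 in D2 and 64.2 ± 0.121 in B6 (SD, n = 3 each), 0.30 below (adjusted p = 0.0285 by limma; -0.30 on the log2 scale). With the copies summed 0 members were called by limma, and both differences shrank, to 0.157 for Atp5g2 and -0.038 for Ndufab1. The number called without 1 line ran from 0 to 4: it was 0 without B44, B51, F116 or F124, 1 without B41, D29 or F117, and 4 without DAC203. Cox4i1 had 306 ± 19.1 in F1, 282 ± 13.8 in D2 and 343 ± 25.3 in B6, and Ndufs1 129 ± 2.81 in F1, 131 ± 3.04 in D2 and 136 ± 3.98 in B6 (SD, n = 3 each).

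Across the 33 BXD lines the members varied more in EpiLCs than in ESCs, and mostly together. Cox4i1 ran from 194 over a median of 320 to 429 in BXD ESCs and from 205 over 457 to 1067 in BXD EpiLCs. Cox7b ran from 106 over 142 to 276 in ESCs and from 92.3 over 241 to 535 in EpiLCs. Uqcrc1 was among the steadier genes, from 266 over 308 to 375 in ESCs and from 187 over 219 to 264 in EpiLCs. The median member had 6 BXD lines above the range of the 6 parental lines in ESCs and 24 in EpiLCs, and 1 line below it in each state. Parental EpiLC libraries were also low for all transcripts under 1000 bases. Their median log2 deviations there were -0.585 in B6 and -0.282 in D2, against 0.045 in BXD. Lines beyond the parental range were not counted for all genes or after length centring. The Spearman correlation of 2 members over the lines had a median of 0.273 in ESCs and 0.820 in EpiLCs over 4095 pairs, and 20.83% and 81.68% of the pairs were above 0.5, against 5.51% and 18.97% of pairs of all genes. After length centring the medians were 0.139 and 0.127, and the shares 11.84% and 25.74%, against 5.421% and 13.39%. All pairs of a state share the same libraries, so these are descriptions.

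The joint variation ran with the short transcripts of a library. Over the BXD EpiLC libraries the median deviation of the members lay between -0.693 and 0.901 (log2) and had a Pearson r of 0.998 with the median deviation of all transcripts under 1000 bases (0.998 without the 2 farthest lines), over the same 33 libraries. In BXD ESC libraries the range was -0.131 to 0.301 and r was 0.851 (0.739 without the 2 farthest). The short transcripts include the members under 1000 bases, which are 47 of the 537 such genes in both tables. These r values therefore set a part against a whole and are high in part for that reason, and r without the members was not computed. Cytosolic ribosomal protein genes, which are also short, gave 0.992 in EpiLCs and 0.861 in ESCs, and mitochondrial ribosomal protein genes 0.987 and 0.448. Citric acid cycle enzymes gave 0.80 and 0.593, transcripts over 5000 bases -0.955 and -0.401, and the 13 subunits encoded in the mitochondrial genome -0.663 and 0.178. The part of library preparation or RNA quality in this pattern was not tested.

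**Figure D4:**
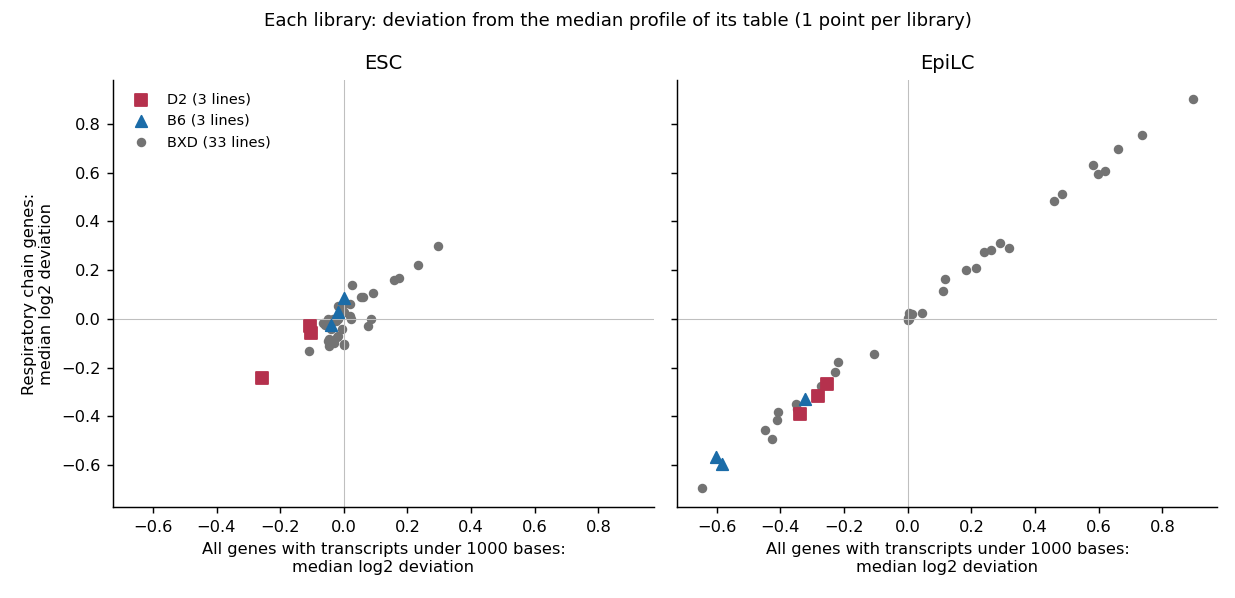
Median log2 deviation of the member genes (vertical) and of all genes with transcripts under 1000 bases (horizontal) from the median profile of the table, 1 point per library, D2 squares, B6 triangles and BXD circles. The genes under 1000 bases include the members of that length. EpiLC libraries spread along one line from -0.693 to 0.901, and ESC libraries are packed more closely around 0, with the D2 line D55 lowest at -0.241.

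The widest-ranging members over BXD ESCs were Atp5g2, Ndufa4l2, Cox6b2, Cox7a1, Ndufaf2 and Atp5s by the SD of log2 values. Ndufa4l2 ran from 1.22 over 5.74 to 44.5, with 22 of the 33 lines below the parental range. Cox6b2 ran from 8.7 over 15.9 to 28.3 and Cox7a1 from 2.68 over 7.92 to 17.5. Fibroblast markers also ranged widely over these BXD ESC libraries, with sums from 781 over a median of 1662 to 7094. In BXD EpiLC libraries they ran from 104.6 over 160.5 to 951. The part of such cells in the ranges of the members was not tested. In BXD EpiLCs the widest were Atp5g2, Cox7b2, Cox7b, Atp5e, Ndufa7 and Uqcrh. Atp5e ran from 60.5 over 158 to 396, with 28 lines above the parental range, and Cox7b2 from 0.182 over 0.908 to 7.45. Atp5g2 split the lines into 2 clusters in both states: 14 lines had 13.7 to 39.3 in ESCs and 14.2 to 34.4 in EpiLCs, as in B6, and the other 19 lines had 105 to 212 and 170 to 381, as in D2. Gm10175 had 135 to 198 in ESCs in the 14 lines and 29.1 to 57 in the 19.

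Whether a line kept its rank from ESC to EpiLC was tested by Spearman's rho over the 33 BXD lines, with a permutation test (100000 shuffles, two-sided) and BH adjustment over 11752 genes. It was called for 5 of 90 members, all positive (background 9.22%, 8.97% with a positive rho). One of them was Atp5g2, whose 2 clusters allow no pooled value, and within the clusters rho was -0.024 over 14 lines and 0.246 over 19. Ndufa13, a subunit also known as GRIM-19, had a rho of 0.643 (adjusted p = 0.00308 by permutation) and a Pearson r of 0.636 (adjusted p = 0.0019 by permutation), and r was 0.587 without the 2 farthest lines. Ndufaf2 had a rho of 0.559 (adjusted p = 0.0148 by permutation) and an r of 0.526 (adjusted p = 0.0207 by permutation), 0.573 without the 2 farthest lines. Ndufa3 had a rho of 0.554 (adjusted p = 0.0164 by permutation) and an r of 0.566 (adjusted p = 0.00969 by permutation), 0.49 without 2 lines. Ndufs7 had a rho of 0.502 (adjusted p = 0.0405 by permutation), an r of 0.445 that was not called (adjusted p = 0.0683 by permutation), 0.409 without 2 lines, and a rho of -0.072 after length centring. Ndufaf8 came next at 0.47 (adjusted p = 0.0639 by permutation), and the lowest were Ndufs1 at -0.277 and Sdhaf3 at -0.268, neither called. After length centring 10 of the 90 members were called (background 10.6%, 10.2% with a positive rho).

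**Figure D5:**
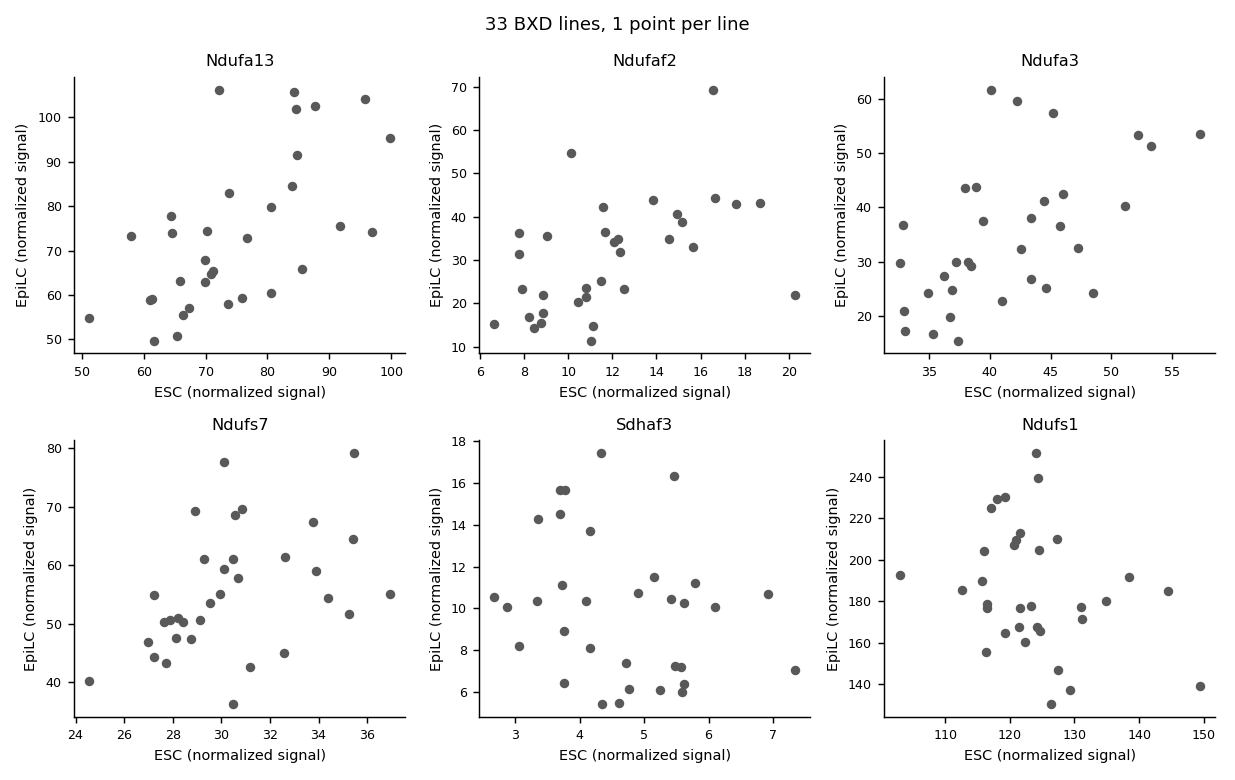
Normalized signal in EpiLCs (vertical) and in ESCs (horizontal) of 6 member genes, 1 point per BXD line. Ndufa13 and Ndufaf2 rise together in both states (rho 0.643 and 0.559), and Ndufs1 and Sdhaf3 do not (rho -0.277 and -0.268).

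Set side by side without a test, since the tables were normalized apart, EpiLC values were above ESC values of the same line by a median log2 ratio of 0.50 over the 90 members and 0.116 over all 11754 genes. Of the members 69 of 90 had a median above 0, and of all genes 6519 of 11754. These ratios were not centred on transcript length, and the part of the members' short transcripts in them was not tested. In 1 member, Atp5j2, every BXD EpiLC value was above every BXD ESC value (83.9 to 452 in EpiLCs and 39.7 to 72.9 in ESCs), and in 1, Uqcrc1, every EpiLC value was below (background 4.53% and 3.90%). Atp5j2 was named after its values were seen.

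Open chromatin at the promoters was compared in the ATAC-seq data of the same parental lines, which had 16277662 to 24346475 reads in regions per library. In ESCs 93 of the 97 genes had a region within 1 kb of a start, 100 regions in all. Calls numbered 57, with 52 higher and 5 lower in D2, and the median log2 difference was 0.202. Background was 46.9% of all 112226 regions (22.2% higher and 24.7% lower), and 44.4% of regions at any protein-coding start (29.7% higher and 14.7% lower, median 0.0926). In EpiLCs 95 genes had a region, 99 regions in all. Calls numbered 51, all lower in D2, and the median was -0.149. Background there was 58.2% of all regions (25.6% higher and 32.6% lower), and 69.3% of regions at any start (7.97% higher and 61.3% lower, median -0.195). The directions were thus those of start regions in general, and opposite to the main direction of the members' RNA as deposited in both states. By edgeR on the recovered reads 58 were called in ESCs and 38 in EpiLCs, 37 of them lower. The edgeR background in ESCs was 48.5% of all regions (23.4% higher and 25% lower) and 48.2% of start regions (33.2% higher and 15% lower). In EpiLCs it was 56.7% of all regions (29.1% higher and 27.6% lower) and 59.9% of start regions (10.1% higher and 49.8% lower).

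Single promoters did not all follow. The region of Cox7a1 at chr7:30183704-30185548 had 9.45, 9.23 and 10.2 in D2 ESC lines D29, D55 and DAC203 and 13.8, 13.7 and 12.4 in B6 ESC lines B41, B44 and B51, lower in D2 (-0.46, adjusted p = 0.000195 by limma) as its RNA was. The promoters of Ndufa4l2 (-0.47), Ndufb10 (-0.46), Cox4i1 (-0.35) and Ndufa7 (-0.20) were the other 4 called lower in D2 ESCs. The promoter region of Atp5g2 at chr15:102670014-102674242 had 47.3, 45 and 42.7 in D2 ESCs and 39.4, 40.1 and 38.8 in B6 ESCs (0.19). In EpiLCs, at chr15:102669992-102674767, it had 49.3, 47.5 and 46.1 in D2 and 59.3, 60.6 and 57.4 in B6 (-0.31), while the RNA row was higher in D2 in both states. Cox7b had the highest ESC difference of the called promoters, with 7.33 ± 0.26 in D2 and 5.19 ± 0.385 in B6 (SD, n = 3 each), and its RNA was lower in D2 ESCs. Cox5b had 9.43 ± 0.837 in D2 ESCs and 9.54 ± 0.369 in B6 ESCs (SD, n = 3 each) and was not called in either state.

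Related mitochondrial genes, chosen by function, were read in the same fits. The background for all these lists was 37.6% of all genes called in ESCs, 57.5% in EpiLCs and 36.0% for the change between states. Mitochondrial ribosomal proteins had the main directions of the members but were called less often than all genes in each comparison. Of 77, 3 were called higher and 12 lower in D2 ESCs, 29 higher and 7 lower in D2 EpiLCs, and 17 positive and 1 negative for the change. The 13 mitochondrially encoded subunits had 3 called higher in D2 ESCs and 3 lower in D2 EpiLCs. Their median deviation in D55 ESCs was 0.82, the highest of the D2 lines, beside -0.241 for the nuclear members. Citric acid cycle enzymes were split, with 2 higher and 2 lower of 17 in D2 ESCs and 7 higher and 8 lower in D2 EpiLCs. Assembly factors outside the symbol rule had 4 higher and 5 lower of 36 in D2 ESCs and 14 higher and 11 lower in D2 EpiLCs. Electron carriers and ubiquinone synthesis genes had 2 and 2 of 16 in ESCs and 4 and 3 in EpiLCs, and regulators of mitochondrial biogenesis 2 and 3 of 14 in ESCs and 4 and 2 in EpiLCs, higher counts first. Of these lists 0 genes were called by limma for F1 against the mid-parent (background 3.29% of all genes).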

How the data were processed

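RNA was sequenced from ESC and EpiLC lines of D2, BXD and B6 mice and from F1 ESC lines, and open chromatin by ATAC-seq from D2, F1, BXD and B6 lines, of which the D2 and B6 lines were compared here. The authors deposited normalized signal values per gene and per ATAC region, not raw reads. Per the submitters' processing notes, the tools included HISAT2 2.0.5, Bowtie 1.0.0 and MACS 1.4.2, and the build was mm10. Which tool made which file, the annotation, the counting tool and the strand setting are not stated. No value column was left without a sample (0 columns).

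Values were tested as log2(value + 1) for RNA and log2(value + 0.1) for ATAC with limma 3.58.1 (R 4.3.3; trend and robust), after a filter of a mean of at least 0.5 for RNA, with BH adjustment over all features and calls at an adjusted p under 0.05; fold changes on this scale understate low genes. The state comparison was an interaction term. F1 was compared with the mean of the parents' log2 values. All (100%) ATAC values gave whole reads within 0.02, and edgeR 4.0.16 was run on them as an added alternative. Copies were found with BLAST 2.17.0. The length trend was a loess fit of span 0.3. Other steps used Python 3.11.15 and pandas 2.3.3. The tests were checked on simulated data.

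Genes given by line were the 10 largest called differences per state, the 6 largest called for the state change and for F1, the 6 highest and 2 lowest rho values, the 6 most variable over BXD lines per state, the X-linked members, the c ring genes and 1 subunit per complex. The member genes and all lists were chosen with earlier results of these data known. Each line gave 1 library per state, so lines are paired between states. Replicate numbers in the labels did not pair lines of the 2 strains.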

Additional observations from a re-analysis of the deposited data

Results flagged for a closer look

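The strain difference changed between states for 23 of the 37 genes given by line, by limma's test of the change itself. Those genes were chosen in part for being called in this test or in 1 state, so this count is no measure of frequency. Over the 90 members without such choice 37 were called (background 36.0% of all genes). All values are the log2 difference of D2 minus B6 in EpiLCs less that in ESCs. Among complex I genes it was 0.54 for Ndufa1, 0.43 for Ndufa3, 0.76 for Ndufa7, 0.50 for Ndufa11, 0.50 for Ndufab1, 0.76 for Ndufb9 and 0.45 for Ndufb11. Among its assembly factors it was 0.85 for Ndufaf5, -0.70 for Ndufaf6 and 1.07 for Ndufaf7. In complex III it was 0.69 for Uqcr11 and 0.50 for Uqcrh. In complex IV it was 0.44 for Cox4i1, 0.85 for Cox5b, 0.72 for Cox6a1, 0.91 for Cox6b2, 1.18 for Cox7a1, 0.60 for Cox7b, 0.57 for Cox7c and 0.67 for Cox8a. In the c ring it was 0.54 for Atp5g1, 1.12 for Atp5g2 and 0.48 for Atp5g3. Transcript length moved with these values: after length centring 11 of the 23 were not called by limma. Their centred changes were 0.241 for Cox8a, 0.299 for Cox6a1, 0.217 for Cox7c, 0.106 for Cox4i1, 0.199 for Uqcr11, 0.069 for Uqcrh, 0.225 for Ndufa11, 0.173 for Ndufb11, 0.030 for Ndufa1, -0.022 for Ndufa3 and 0.134 for Atp5g3, with adjusted p of 0.0521 to 0.905. Without at least 1 of the lines 9 lost their calls, namely Cox4i1, Cox7b, Cox7c, Ndufa1, Ndufa3, Ndufa11, Ndufaf6, Ndufb11 and Uqcrh, with adjusted p of 0.0526 to 0.253. The 10 called after centring and without each line were Atp5g1, Atp5g2, Cox5b, Cox6b2, Cox7a1, Ndufa7, Ndufab1, Ndufaf5, Ndufaf7 and Ndufb9. With its copies summed the change of Atp5g2 was 0.402 (adjusted p = 0.0151 by limma).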

How the results depend on the processing

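Of the values of single genes under all alternatives, 845 kept their direction and side of the threshold, 113 kept their direction but were no longer called, and 4 changed sign. With pseudogene copies summed, Atp5g2 in ESCs became -0.103 and Ndufab1 in EpiLCs 0.245; after length centring, the state change of Ndufa3 became -0.022 and the rho of Ndufs7 -0.072. Without 1 line the number of members called ran from 13 to 36 in ESCs (32 with all lines), 20 to 48 for the state change (37) and 0 to 4 for F1 (2). With copies summed F1 gave 0 by limma, and with length centring 10 members were called for rho (5 as deposited). With the label's replicate number as a block 17 members were called in ESCs, 38 in EpiLCs, 43 promoters in ESCs and 47 in EpiLCs; these numbers pair no lines (correlations of deviations between -0.391 and 0.007). With the cell line as a block 34 were called for the state change, and Cox4i1 and Ndufa3 lost their calls (adjusted p = 0.0518 and 0.072 by limma). RNA read depth is unknown, so no counting error can be given, and 3 lines per strain limit the precision. The cause of each change was not tested.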
